A study of Mus musculus with 6 samples.

Results

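The BCL2 family decides whether a cell's mitochondria stay intact, and 10 of its genes were followed here in mouse macrophages given interferon-gamma (IFN-γ). The members were chosen by gene name, with earlier results of these data known. They comprise 5 pro-survival genes (Bcl2, Bcl2l1, Mcl1, Bcl2a1b and Bcl2a1d) and 5 pro-apoptotic genes (Bax, Bak1, Bcl2l11, Bmf and Bbc3). All 10 were found among the 36706 entries of the tables, and all 10 were among the 12968 genes that passed the filter on low counts. RNA sequencing had been done on 6 libraries of wild-type bone marrow-derived macrophages, which are bone marrow cells grown into macrophages in the growth factor M-CSF at 20 ng/mL. Of these libraries, 3 came from cells given IFN-γ for 3 h and 3 from cells left untreated for the same time. No allele or agent other than these is named, and the labels do not tell if replicate libraries stem from different mice or wells. The p-values therefore measure only the spread between these libraries, which may be technical.

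Members of this family share short regions of likeness called BH domains and act at the outer mitochondrial membrane. Pro-survival proteins hold the pore-forming proteins BAX and BAK in check, and the BH3-only proteins, such as BIM, BMF and PUMA, bind the pro-survival proteins and free or activate the pore formers. Once BAX and BAK open the membrane, cytochrome c leaves the mitochondrion and caspases are switched on. In macrophages MCL1 and the A1 proteins are known survival factors, and A1 is a known target of NF-κB. What follows concerns transcripts, while much of the control of this family in other systems acts on the proteins.

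The tables held 32628170 to 34233607 counts per IFN-γ library and 28133342 to 31173432 counts per untreated library. All 8 macrophage markers were detected in both groups, with a summed level of 20778 to 22086 CPM (counts scaled to library size, with TMM factors) in IFN-γ libraries and 19582 to 21165 CPM in untreated libraries. Of these 8 markers 3 were higher and none lower, with a median log2 fold change of 0.26. By the same test, set out below, 19.6% of all 12968 genes tested were higher and 16.8% lower. Markers of T and NK cells summed to at most 0.293 CPM in IFN-γ libraries and 0.326 CPM in untreated libraries. Stromal markers summed to at most 1.23 CPM in IFN-γ libraries and 0.623 CPM in untreated libraries. For mast cell and basophil markers the highest sums were 2.03 CPM with IFN-γ and 1.84 CPM untreated. B cell markers were somewhat higher, at up to 3.54 CPM with IFN-γ and 4.97 CPM untreated. The neutrophil and granulocyte precursor list moved with the treatment, at 168 to 180 CPM in IFN-γ libraries against 98.6 to 121 CPM in untreated libraries. Of its 8 tested genes 5 were higher and none lower. Ly6g, a defining neutrophil marker, had 2, 0 and 0 counts with IFN-γ and 0, 1 and 0 counts untreated. Dendritic cell markers summed to 33.7 to 43.2 CPM with IFN-γ and 24.3 to 26.8 CPM untreated, and 3 of 6 tested were higher. The part of these shifts in the results below was not tested, and in bulk RNA fewer cells of a type cannot be told apart from less RNA per cell. Untreated replicate 2 stood apart in its trend on exon length, at -0.139 log2 units per doubling of length relative to the mean of the other untreated libraries. Untreated replicates 1 and 3 had 0.1 and 0.0388 on the same measure, and the IFN-γ libraries -0.0366 to 0.0602.

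The family moved on both sides, and its largest single change was a fall of a BH3-only gene. Of the 10 members 6 were higher and 3 lower with IFN-γ by edgeR's quasi-likelihood test with a Benjamini-Hochberg adjusted p under 0.05. Over all 12968 genes tested the same rule called 36.4%, with 19.6% higher and 16.8% lower. The groups did not overlap for 9 members, against 50.1% of all genes. Because the members were chosen with earlier results known, these counts describe them and are not a test of the family. Among pro-survival members Mcl1, Bcl2l1, Bcl2a1b and Bcl2a1d rose and Bcl2 fell, with a median log2 fold change of 0.46. Among pro-apoptotic members Bak1 and Bbc3 rose, Bmf and Bcl2l11 fell and Bax was not called, with a median of -0.04. The median of all genes was -0.01. Scaling by total counts alone lowered the median of all genes to -0.18 and left 26.9% of all calls on the higher side, against 53.8% with TMM. Under it 4 members were called higher and 3 lower.

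**Figure D1:**
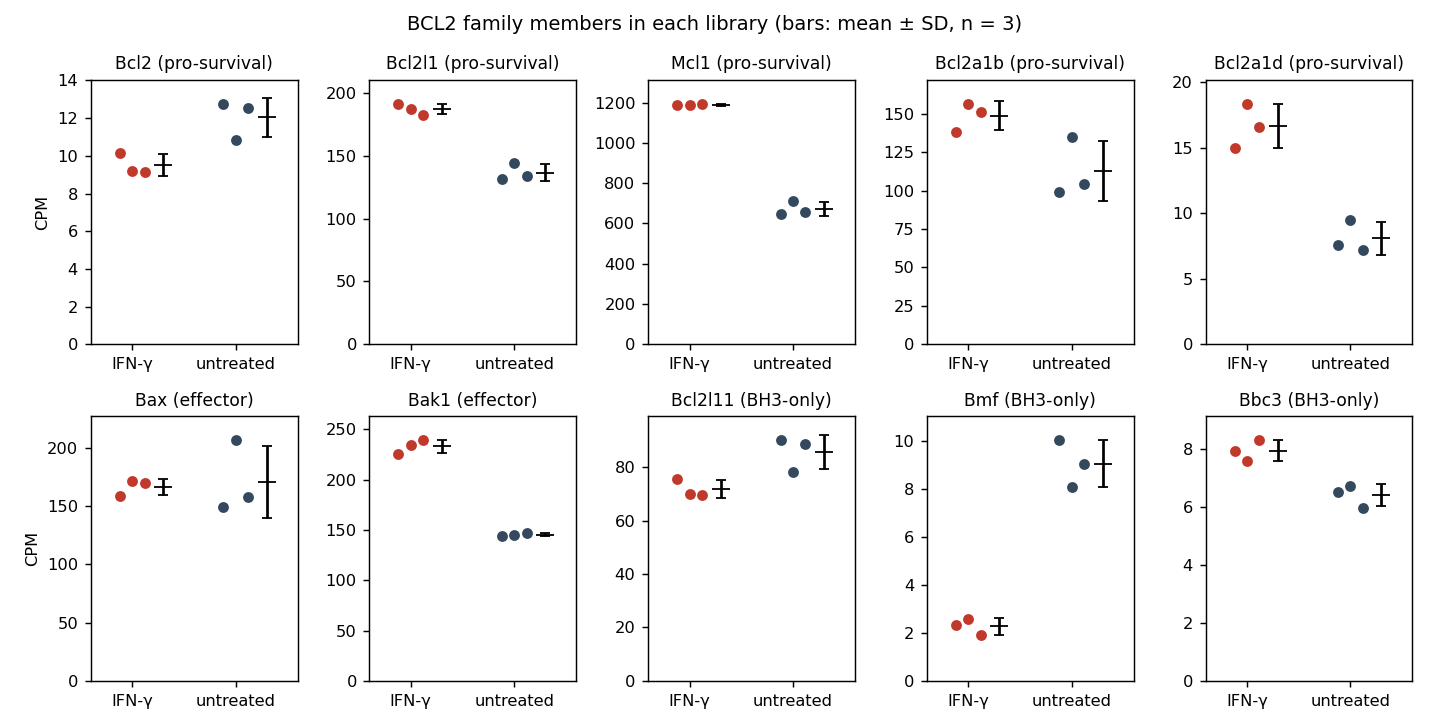
Level of each of the 10 BCL2 family members in CPM (vertical axis, from 0) in the 3 IFN-γ libraries (left in each panel) and the 3 untreated libraries (right), with points for libraries and bars for mean ± SD. The groups separate in every panel but that of Bax, and the Bmf points lie between 1.90 and 2.60 CPM with IFN-γ against 8.09 to 10.0 CPM untreated.

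Mcl1 encodes a short-lived guard that binds BAK and BIM, and it carried the most counts of any member. Its level was 1188, 1186 and 1194 CPM in the IFN-γ libraries, against 646, 709 and 657 CPM in the untreated libraries. Every IFN-γ library was far above every untreated one, and the IFN-γ libraries lay close together. On the log2 scale Mcl1 rose by 0.83 ± 0.06 (SE), a 1.77-fold higher level (adjusted p = 2.09e-05). The estimate lay between 0.66 and 0.87 under all settings tried and was called under each. The tables place Mcl1 on chromosome 3, plus strand, from 95564017 to 95583553. Coordinates are printed as the tables give them, with no build named in them. Start and end equalled those of a RefSeq table for GRCm38.p6 for 601 of 35272 shared gene names, although the submitters' processing notes name mm10, so the printed positions should not be read as mm10.

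Bcl2l1 encodes BCL-XL, and in addition, by splicing, a short form that promotes death. The counts are per gene and do not separate these forms. Its level was 191, 188 and 183 CPM with IFN-γ, against 131, 144 and 134 CPM untreated. The groups did not overlap, and Bcl2l1 rose by 0.46 ± 0.06 on the log2 scale, 1.37-fold (adjusted p = 0.000475). The gene lies on chromosome 2, minus strand, from 152600652 to 152675723. Its call held under every setting, with values from 0.29 to 0.50.

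Bcl2a1b and Bcl2a1d are near-identical mouse copies of the gene for A1, a small guard induced in activated leukocytes. Both lie on chromosome 9 with 2 exons each, Bcl2a1b on the plus strand from 89081326 to 89089891 and Bcl2a1d on the minus strand from 88605341 to 88613903. Bcl2a1b had 138, 157 and 151 CPM with IFN-γ, against 98.9, 135 and 104 CPM untreated. The highest untreated library, replicate 2, came within a few CPM of the lowest IFN-γ library. Bcl2a1b rose by 0.40 ± 0.12 on the log2 scale (adjusted p = 0.0277), and with each library's trend on exon length removed it was 0.46 ± 0.04. The call was lost with upper quartile scaling (0.25) and total counts (0.23). It was also lost without untreated replicate 1 (0.31) or 3 (0.34) and without IFN-γ replicate 2 (0.36) or 3 (0.39).

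Bcl2a1d had 486, 564 and 516 counts with IFN-γ, against 228, 281 and 242 counts untreated. In CPM these were 14.97, 18.4 and 16.6 with IFN-γ against 7.58, 9.51 and 7.18 untreated. The lowest IFN-γ library was well above the highest untreated one. Its log2 fold change was 1.04 ± 0.12 (adjusted p = 0.000331), the largest rise among the 10 members, and the call held under every setting that kept the row.

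These rows cannot be taken as separate genes without reserve. Of the 50-base stretches in GENCODE M21 transcripts, 79.2% of those of Bcl2a1b and 79.5% of those of Bcl2a1d also occurred in another gene. Bcl2a1d shared 64% with Bcl2a1a and 54.3% with Bcl2a1b. How reads that map to several copies were counted is not given in the sources used here. The summed row of all 4 listed copies, Bcl2a1a to Bcl2a1d, was at 168 ± 11.5 CPM with IFN-γ and 122 ± 20.5 CPM untreated (SD, n = 3 each). Its log2 fold change was 0.47 ± 0.12 (adjusted p = 0.0141), with Bcl2a1b making up most of the sum. No other setting was run on this sum, and it does not hold Gm29094, with which Bcl2a1b shares 46% of its stretches. The neutrophil and granulocyte precursor markers, whose cells are known to express A1 and Mcl1, were higher in the same libraries, and their part was not tested. Bcl2a1d counts were 0.108, 0.117 and 0.11 of Bcl2a1b counts in the IFN-γ libraries, against 0.0766, 0.0705 and 0.0687 in the untreated libraries, so this ratio was higher in every IFN-γ library than in any untreated one.

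The likeness of these copies extends into their promoters. RefSeq promoter windows (assembly GRCm38.p6, 250 bases before to 50 after the annotated start, read 5′ to 3′ on the gene's strand) are printed for both members, since they show how little sequence tells the copies apart. Capitals mark the longest exact run that both windows share, 84 bases. The Bcl2a1b window is chr9:89199023-89199322 on the plus strand and the Bcl2a1d window is chr9:88731801-88732100 on the minus strand.
Bcl2a1b: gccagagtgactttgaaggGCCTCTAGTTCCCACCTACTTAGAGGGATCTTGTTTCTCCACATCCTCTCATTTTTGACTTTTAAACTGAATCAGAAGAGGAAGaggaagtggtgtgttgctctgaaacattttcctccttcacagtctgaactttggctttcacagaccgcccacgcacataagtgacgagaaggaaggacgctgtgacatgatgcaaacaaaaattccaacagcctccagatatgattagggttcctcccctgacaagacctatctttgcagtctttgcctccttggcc
Bcl2a1d: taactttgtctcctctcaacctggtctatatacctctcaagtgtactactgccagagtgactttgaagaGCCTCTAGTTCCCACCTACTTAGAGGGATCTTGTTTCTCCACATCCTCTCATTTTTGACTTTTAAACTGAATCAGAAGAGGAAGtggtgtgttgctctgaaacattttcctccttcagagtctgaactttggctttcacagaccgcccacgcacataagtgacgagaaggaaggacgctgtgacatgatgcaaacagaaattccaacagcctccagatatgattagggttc
Aligned end to end over their overlap of 256 positions, the windows had 247 identical bases, 3 mismatches and 6 gap positions, or 96.5% identity. The start of the Bcl2a1b window falls later in the shared sequence than that of the Bcl2a1d window.

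Bcl2, the founding member and a guard of lymphocytes in particular, went the other way from the remaining guards. It had 10.2, 9.22 and 9.15 CPM with IFN-γ, against 12.8, 10.9 and 12.5 CPM untreated. All IFN-γ libraries were below all untreated ones, but by a small margin at untreated replicate 2. Bcl2 had a log2 fold change of -0.34 ± 0.09 (adjusted p = 0.0192). The call was lost without untreated replicate 1 (-0.30) or 3 (-0.32) and without IFN-γ replicate 2 (-0.32) or 3 (-0.31), while total counts gave -0.51. Bcl2 lies on chromosome 1, minus strand, from 106465906 to 106642020.

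Of the pore-forming genes, Bak1 rose and Bax did not pass the test. Bak1 encodes BAK, which sits in the outer membrane and is held in check by MCL1 and BCL-XL. It had 226, 234 and 239 CPM with IFN-γ, against 144, 145 and 147 CPM untreated. The untreated libraries lay within a few CPM of each other and far below every IFN-γ library. Bak1 rose by 0.68 ± 0.05 on the log2 scale, 1.604-fold (adjusted p = 2.17e-05), and the call held under every setting, with values from 0.51 to 0.71. The gene lies on chromosome 17, minus strand, from 27238786 to 27247601. Of its transcripts' 50-base stretches 17.1% also occurred in those of Ggnbp1.

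Bax encodes BAX, which moves from the cytosol to mitochondria when activated. It had 158, 172 and 170 CPM with IFN-γ, against 149, 206 and 158 CPM untreated. The groups overlapped, and untreated replicate 2 was the highest of all 6 libraries. The log2 fold change was -0.04 with a 95% interval from -0.31 to 0.23 (adjusted p = 0.832). Without untreated replicate 2 it was 0.12, and with the trend on exon length removed 0.02, in neither case called. Bax lies on chromosome 7, minus strand, from 45111119 to 45116344.

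Of the BH3-only genes Bmf and Bcl2l11 fell and Bbc3 rose. Bmf encodes BMF, a BH3-only protein known to bind dynein light chain and to respond to detachment from the substrate. It had 76, 80 and 59 counts with IFN-γ, against 302, 239 and 306 counts untreated. In CPM these were 2.34, 2.60 and 1.90 with IFN-γ against 10.0, 8.09 and 9.07 untreated. The highest IFN-γ library was below the lowest untreated one by a wide margin. Bmf had a log2 fold change of -1.99 ± 0.14, a level 3.97-fold lower with IFN-γ (adjusted p = 1.23e-05), and it lay between -2.16 and -1.87 under all settings. The gene lies on chromosome 2, minus strand, from 118359238 to 118385280.

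Bcl2l11 encodes BIM, which can bind all the guards and activate BAX directly. It had 75.6, 70.0 and 69.5 CPM with IFN-γ, against 90.0, 78.3 and 88.8 CPM untreated. The groups did not overlap, but the lowest untreated library, replicate 2, was close to the highest IFN-γ library. Bcl2l11 had a log2 fold change of -0.26 ± 0.07 (adjusted p = 0.0236), and -0.28 ± 0.04 with the trend on exon length removed. The call was lost without untreated replicate 1 (-0.22) or 3 (-0.24) and without IFN-γ replicate 2 (-0.24) or 3 (-0.23). Bcl2l11 lies on chromosome 2, plus strand, from 127967958 to 128004467.

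Bbc3 encodes PUMA, a BH3-only protein known as a target of p53. It had 7.95, 7.59 and 8.31 CPM with IFN-γ, against 6.51, 6.73 and 5.99 CPM untreated. Each IFN-γ library was above each untreated one, and the difference was the smallest called rise among the members. The log2 fold change was 0.31 ± 0.08 (adjusted p = 0.0215). The call was lost with upper quartile scaling (0.16), total counts (0.14) and DESeq2 (adjusted p = 0.0571). It was lost as well without untreated replicate 1 (0.32) or 3 (0.25) and without IFN-γ replicate 1 (0.30) or 3 (0.28). Bbc3 lies on chromosome 7, plus strand, from 16042307 to 16052259.

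**Figure D2:**
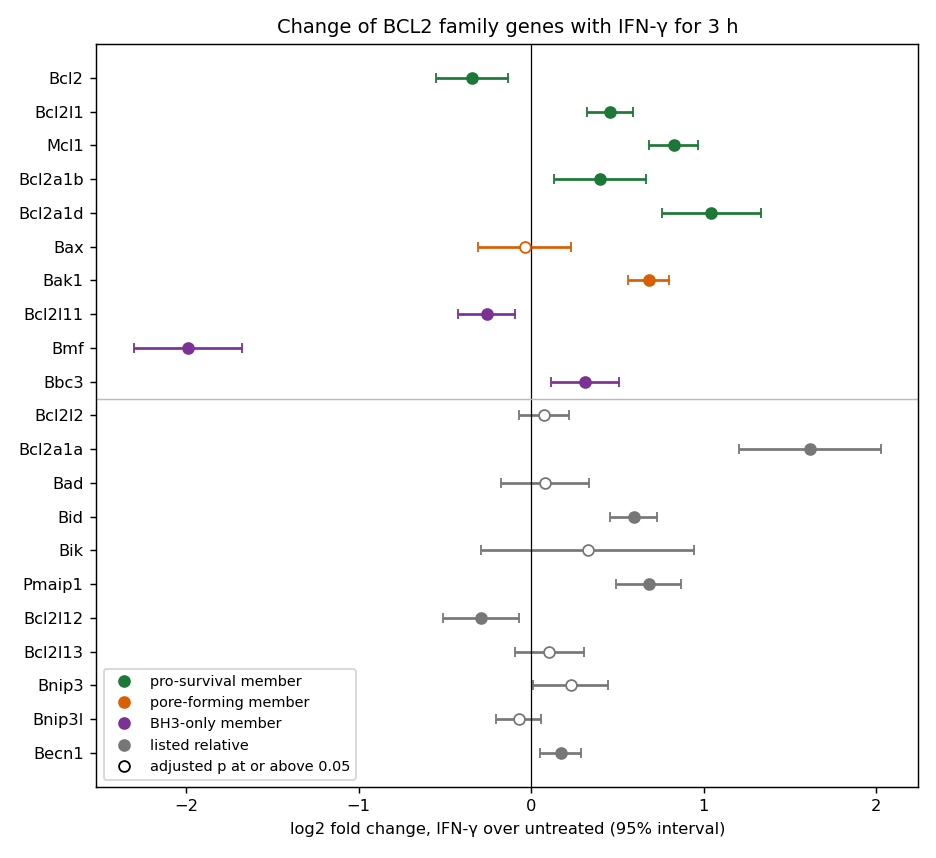
Log2 fold change of IFN-γ over untreated with its 95% interval (horizontal axis) for the 10 members, in role order from the top, and for the 11 listed relatives that were tested, below the grey line. Filled points have an adjusted p under 0.05 in edgeR's quasi-likelihood test. Bmf at -1.99 lies far left of the others, and Bcl2a1a at 1.62 lies farthest right.

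Promoter windows were also searched for motifs of factors known to act in IFN-γ or stress responses, on both strands. RefSeq gave 17 windows for the 10 members. None held the STAT-binding GAS letters TTCNNNGAA, which 8.3% of all 32851 windows held. None held the interferon-response letters GAAA, any 2 bases and GAAA again, which 3.4% of all windows held. An NF-κB motif was found in 3 of the 17 windows, of Bcl2l1, Bbc3 and Bmf, against 4.5% of all windows, and a p53 half-site in 2, of Bax and Bmf, against 8.4%. The stretches with the NF-κB matches are printed because 2 of their genes rose and 1 fell. Capitals mark the matching letters, of which the run in Bbc3 holds 2 overlapping matches. They lie at chr2:152830925-152830967 on the minus strand for Bcl2l1, chr7:16309421-16309481 on the plus strand for Bbc3 and chr2:118544553-118544612 on the minus strand for Bmf, in GRCm38.p6.
Bcl2l1: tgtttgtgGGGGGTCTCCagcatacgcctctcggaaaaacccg
Bbc3: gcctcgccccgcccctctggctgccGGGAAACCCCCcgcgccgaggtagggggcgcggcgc
Bmf: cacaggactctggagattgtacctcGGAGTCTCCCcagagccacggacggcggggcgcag
The capitals begin 242 bases before the annotated start in Bcl2l1, 137 bases before it in Bbc3 and at the start itself in Bmf. These are matches of letters in short windows, not measured sites, and each of these genes has 3 annotated windows, of which 1 held the match.

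Per unit of transcript length, a few members made up nearly the whole family in these cells. In the deposited TPM, which divides by the full exon length of each gene, the order with IFN-γ was Bcl2a1b (389 ± 14.0), Bax (355 ± 4.85), Mcl1 (273 ± 9.03), Bak1 (230.5 ± 1.93), Bcl2l1 (51.7 ± 2.91), Bcl2a1d (41.8 ± 3.30), Bcl2l11 (14.4 ± 1.19), Bbc3 (3.98 ± 0.21), Bcl2 (2.60 ± 0.25) and Bmf (0.788 ± 0.131), each as mean TPM ± SD over 3 libraries. No neighbours in that order overlapped between their libraries. In untreated cells Bax was first, at 393 ± 40.5 TPM, above Bcl2a1b at 319 ± 29.99 TPM. Mcl1 (167 ± 4.86 TPM) and Bak1 (156 ± 11.8 TPM) overlapped, and so did Bcl2 (3.59 ± 0.56 TPM), Bbc3 (3.48 ± 0.18 TPM) and Bmf (3.41 ± 0.58 TPM) with their neighbours. The order depends on the length used. The tables give Mcl1 a length of 8725 bases, while its longest GENCODE M21 transcript has 3418. With the deposited TPM of each member rescaled to its longest GENCODE M21 transcript, Mcl1 would stand first in both groups. Its rescaled value would be 697 with IFN-γ and 426 untreated, against 364 with IFN-γ and 298 untreated for Bcl2a1b. Other genes kept their deposited lengths and no new scaling over all genes was made, so these values compare members only.

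Set against each other, the pro-survival transcripts gained on the pro-apoptotic ones. The summed pro-survival level was 757, 771 and 747 TPM in the IFN-γ libraries, against 527, 580 and 549 TPM in the untreated libraries. The summed pro-apoptotic level was 604, 607 and 602 TPM with IFN-γ, against 548, 602 and 575 TPM untreated. The pro-survival sum separated the groups by a wide margin, whereas the pro-apoptotic sums overlapped, with IFN-γ replicate 3 at 601.6 TPM just below untreated replicate 2 at 602.2 TPM. The ratio of the sums was 1.253, 1.27 and 1.24 with IFN-γ, against 0.963, 0.963 and 0.956 untreated. As means it was 1.26 ± 0.0148 with IFN-γ and 0.961 ± 0.00429 untreated (SD, n = 3 each), a log2 difference of 0.39. On which side of 1 the ratio lies depends on the lengths used. With GENCODE lengths the pro-survival sum would be the larger in both groups. Untreated, the rescaled values of Mcl1 and Bcl2a1b would then be 426 and 298, against 336 for Bax and 132 for Bak1. No test is given for this ratio, since its members were chosen with results of these data known.

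The make-up of the family shifted towards Mcl1. It made up 20.0% ± 0.709 of the summed TPM of the family with IFN-γ and 14.9% ± 1.02 untreated, while both A1 members together made up 31.6% ± 1.05 with IFN-γ and 30.2% ± 1.37 untreated. BAX and BAK transcripts held 42.9% ± 0.287 with IFN-γ and 48.7% ± 0.38 untreated (SD, n = 3 each). The BH3-only members were a small part, at 1.41% ± 0.102 with IFN-γ and 2.29% ± 0.4 untreated, and their summed level was 20.8, 18.5 and 18.3 TPM with IFN-γ against 28.0, 21.8 and 27.2 TPM untreated. These shares rest on the deposited lengths. With GENCODE lengths the share of Mcl1 would be larger, and those of the A1 members and of BAX and BAK transcripts smaller, in both groups. The size of the ratio follows the lengths and the members summed. It was 0.542 with IFN-γ and 0.369 untreated without the A1 members, and in CPM, which are not per length, 3.22 with IFN-γ and 2.25 untreated. The log2 difference lay between 0.26, without Mcl1, and 0.56, without the A1 members.

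**Figure D3:**
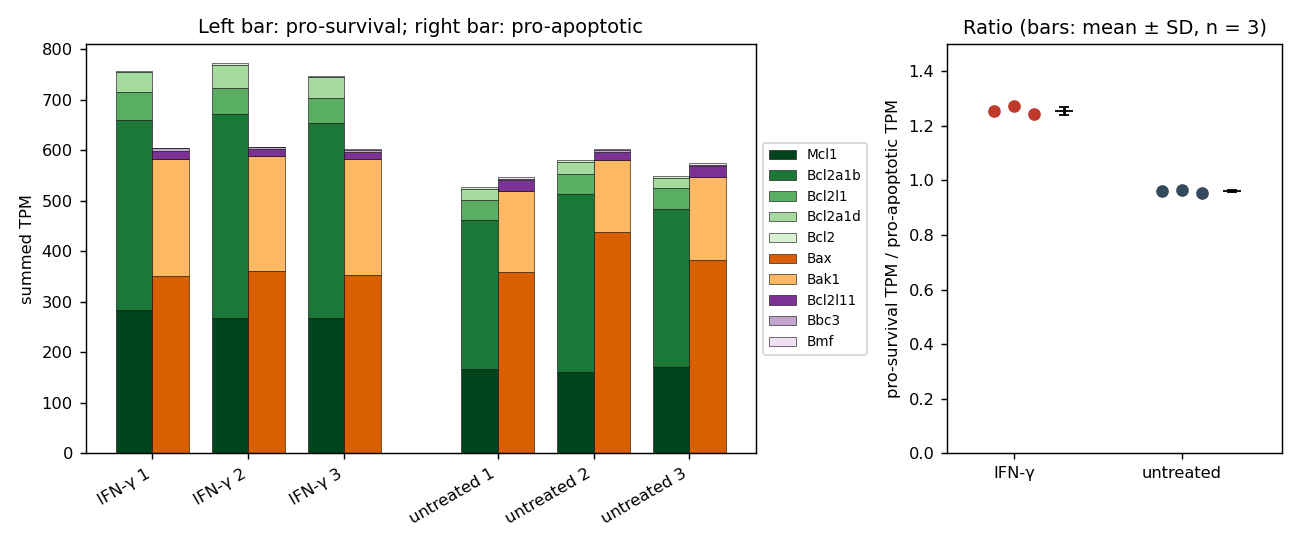
Left, deposited TPM of the 5 pro-survival members (left bar of each pair) and the 5 pro-apoptotic members (right bar), stacked, in each of the 3 IFN-γ and 3 untreated libraries. Right, the ratio of these sums per library with mean ± SD, at 1.24 to 1.27 with IFN-γ and 0.956 to 0.963 untreated.

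Other relatives of the family were read from a list of 17 genes, of which 11 were tested, 4 were higher and 1 was lower. Their median log2 fold change was 0.17. Over all genes tested 19.6% were higher and 16.8% lower. Among guards Bcl2a1a, another A1 copy, had 81, 92 and 112 counts with IFN-γ and 29, 29 and 34 counts untreated, a log2 fold change of 1.62 ± 0.18 (adjusted p = 0.000209). Of its 50-base stretches 69% occurred in another gene. Bcl2l2, which encodes BCL-W, averaged 46.9 CPM with IFN-γ and 44.5 CPM untreated. Its log2 fold change had a 95% interval from -0.07 to 0.22. Over 18.6% of its length Bcl2l2 overlaps exons of Pabpn1 on the same strand. Of the 50-base stretches of Bcl2l2 transcripts 12.1% also occurred in those of Gm20521.

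Among BH3-only relatives Bid and Pmaip1 rose. Bid encodes BID, which caspase-8 cleaves to link death receptors to mitochondria. It had 87.4, 91.9 and 94.7 CPM with IFN-γ, against 59.4, 63.1 and 59.0 CPM untreated, a log2 fold change of 0.59 ± 0.06 (adjusted p = 0.000105). Pmaip1 encodes NOXA, a partner of MCL1 and A1. It had 20.7, 19.0 and 20.5 CPM with IFN-γ, against 12.9, 13.2 and 11.4 CPM untreated, a log2 fold change of 0.68 ± 0.08 (adjusted p = 0.000353). Neither pair of groups overlapped, and both calls held under every setting. Of the 50-base stretches of Bid transcripts 16.4% also occurred in those of Bcl2l13. Rises were thus found on the pro-apoptotic side of the family as well. Bad, a BH3-only gene controlled by phosphorylation of its protein, had a log2 fold change of 0.08 with an interval from -0.18 to 0.34, and 34% of its exon length overlaps Gpr137 on the other strand. Bik had 10 to 17 counts in every library and was not called.

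Changes of the distant relatives were small. Becn1, the autophagy gene that encodes beclin 1, rose by 0.17 ± 0.05 (adjusted p = 0.0307) and lost its call under 10 of 17 other settings, the replicate block among them. Bcl2l12 had a log2 fold change of -0.29 ± 0.10 (adjusted p = 0.0434) and lost its call under 9. Leaving out any 1 library ended the call of Bcl2l12 (adjusted p from 0.0602 to 0.108), and leaving out any but untreated replicate 2 ended that of Becn1 (0.082 to 0.133). Exons of both overlap a gene on the other strand, over 18.4% of the length of Becn1 and 27% of that of Bcl2l12. Bcl2l13, Bnip3 and Bnip3l, which act in the removal of mitochondria, were not called, at 0.11, 0.23 and -0.07, and Bnip3 was called without untreated replicate 2 (0.33) and with the trend on exon length removed (0.27). Of the 50-base stretches of Bnip3 transcripts 47.2% occurred in another gene. With upper quartile scaling or total counts Bnip3l was called lower, at -0.22 and -0.24. The 6 relatives not tested did not pass the filter on low counts, and the highest count among them was 11. Bcl2l10 and Hrk had 0 counts in all 6 libraries, which allows up to 3 counts, or 0.089 to 0.101 CPM, in a library. Bok had 1, 0 and 8 counts with IFN-γ against 6, 6 and 9 untreated. Bcl2l14 had 11, 2 and 6 counts with IFN-γ against 1, 0 and 0 untreated, while Bcl2l15 and Bcl2a1c had at most 5.

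Downstream of the pore most genes were not called, as was so over all genes tested. Of 16 genes for outer membrane partners and later steps 4 were higher and 1 was lower, with a median log2 fold change of 0.05. Over all genes tested 19.6% were higher and 16.8% lower. Apaf1, the scaffold of the apoptosome, rose by 0.37 ± 0.08 (adjusted p = 0.00871) and lost its call with total counts (0.20). Cycs, the cytochrome c gene, rose by 0.31 ± 0.10 (adjusted p = 0.0338), with overlapping groups, and lost its call under 7 of 17 other settings, among them every left-out library but untreated replicate 2 and IFN-γ replicate 1 (adjusted p from 0.0935 to 0.125). Vdac2, a membrane channel that binds BAK, and Htra2, a mitochondrial protease that is released with cytochrome c, were also called and are named after their values were seen. They had log2 fold changes of 0.28 ± 0.08 and -0.23 ± 0.07 and lost their calls under 8 and 5 settings. Leaving out any library but untreated replicate 2 ended the call of Vdac2 (adjusted p from 0.0717 to 0.104), and leaving out untreated replicate 3 or IFN-γ replicate 1 or 3 ended that of Htra2 (adjusted p from 0.108 to 0.157).

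Genes of factors that are known to act on BCL2 family genes were called in both directions. Of 14 tested 8 were higher and 3 lower, with a median of 0.37, against 19.6% higher and 16.8% lower over all genes tested. Stat3, whose product is known to act on Mcl1 and Bcl2l1, rose by 2.02 ± 0.08, to 228 CPM with IFN-γ against 56.4 CPM untreated (adjusted p = 5.6e-07). Nfkb1 and Rel, which encode NF-κB subunits known to act on A1 and Bcl2l1, rose by 1.28 ± 0.06 and 1.09 ± 0.10. The lower genes, named after their values were seen, were Foxo3, E2f1 and Myc. Foxo3, a known activator of Bcl2l11 and Bbc3, was at 20.9 CPM with IFN-γ against 34.7 CPM untreated, a log2 fold change of -0.73 ± 0.10 (adjusted p = 0.000575). E2f1 and Myc, which drive the cell cycle and growth, had log2 fold changes of -0.53 ± 0.06 and -0.28 ± 0.05. Trp53, the p53 gene, also named after its value was seen, was not called, at -0.02 ± 0.06. With upper quartile scaling or total counts Trp53 was called lower, at -0.17 and -0.19. Mdm2, on the same list and likewise named after its value was seen, was among the higher genes, at 1.07 ± 0.07 (adjusted p = 6.31e-06). The 8 rises and 3 falls are of transcripts and do not show the activity of these factors. Of 7 genes for turnover and cytoskeletal partners of MCL1, BIM and BMF, only Trim17, a ubiquitin ligase gene, was called, at 0.80 ± 0.16 (adjusted p = 0.00517). The share called over all genes tested was 36.4%.

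The tested genes most like a member in pattern were taken as those at the smallest distance in centred log2 CPM over the 6 libraries, among 9610 genes that averaged 5 CPM or more. For Bcl2a1d these were Insl6, Il18 and Fam241a, at distances of 0.149, 0.162 and 0.185. For Bmf they were Cx3cr1, Tfap4 and Dtx4, at 0.361, 0.451 and 0.47. Their log2 fold changes were 1.05 to 1.09 for Bcl2a1d and -1.92 to -1.70 for Bmf. That these lie near the member's own follows from the choice by distance over the same libraries and is not a separate result.

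**Figure D4:**
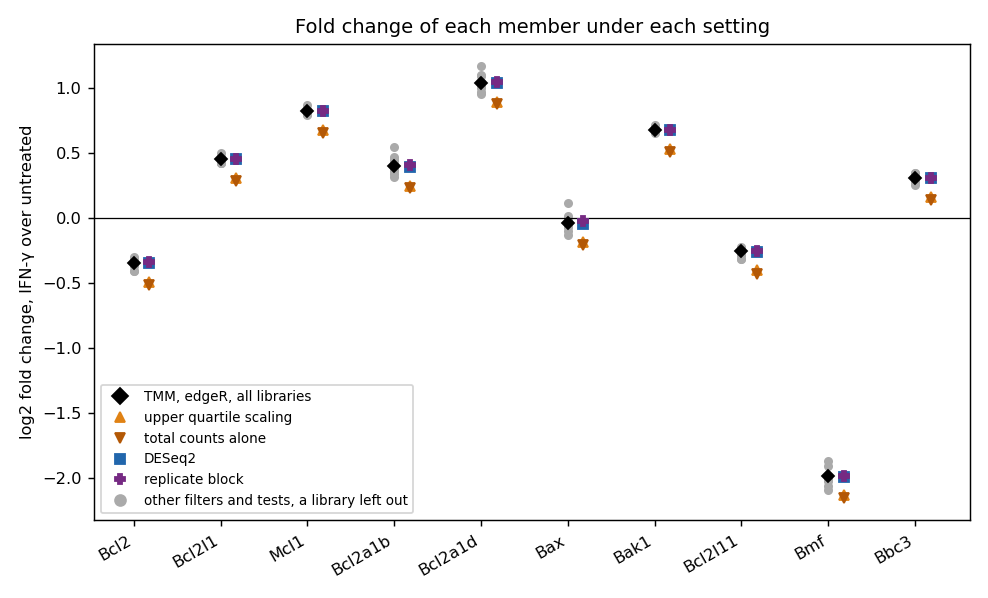
Log2 fold change of IFN-γ over untreated (vertical axis) of each member under TMM with edgeR (black), other scalings, DESeq2, the replicate block and the remaining settings (grey). Upper quartile scaling and total counts lie below the black points in all 10 members, and Bax has values on both sides of 0.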

How the data were processed

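Members and gene lists were chosen with earlier results of these data known. The deposited counts are whole, unnormalized numbers per gene. The deposited TPM, used for levels between genes, matched a recomputation from counts and summed exon length to within 7.28e-11. The deposited FPKM matched likewise, to within 5.09e-11, and was not used further. HISAT2 and mm10 are named, per the submitters' processing notes. The sources used here do not give the counter, its strand setting or its handling of multi-mapping reads. A stranded mRNA kit was used, per the labels' protocols.

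Counts were tested with edgeR 4.0.16 (limma 3.58.1, R 4.3.3): filterByExpr (minimum count 10, minimum total 15), TMM, then glmQLFit and a two-sided glmQLFTest. All 12968 genes entered the Benjamini-Hochberg adjustment, and 0.05 was the threshold. CPM use TMM factors. Standard errors come from the log2 fold change and the F statistic. On data simulated over 13046 genes, the test found 68% of changes at 1.5-fold and 90% at 2-fold but only 18% at 1.25-fold, 50 genes each. The simulation used the same dispersion for every gene and changed few genes, with 144 calls against 4715 in the data. Its adjusted threshold was therefore stricter than that of the data, and these shares do not give the sensitivity of the test as used here. No replicate pair agreed within sampling noise (chi-square over its degrees of freedom at least 2.05). Floors cover counting error only.

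Alternatives were 3 other scalings, 2 other filters, DESeq2 1.42.0, limma-voom, a replicate block, a threshold of 0.01, each library left out and the A1 rows summed. Removal of the trend on exon length (lowess, span 0.5) and GENCODE lengths were chosen after seeing the data. The genes named are the members, their listed relatives and, from each pathway list, the called genes that changed most, up to 3, averaging 1 CPM or more. 1 of the genes so chosen is not reported here. Sequences were read from RefSeq tables and aligned with Biopython 1.88.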

Additional observations from a re-analysis of the deposited data

How the results depend on the processing

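Mcl1, Bcl2l1, Bcl2a1d, Bak1 and Bmf kept their direction and call under every setting that tested them, and no called gene among the members and related lists reversed. Of the members, 4 to 6 were called higher and 1 to 3 lower with 1 library left out. At a threshold of 0.01, 4 were higher and 1 lower. Of 48 related genes 17 were higher and 5 lower, or 13 to 19 and 3 to 6 with 1 library left out. The lower count was 13 with upper quartile scaling or total counts, 3 with no filter and 3 at a threshold of 0.01. Over all genes 2539 were higher and 2176 lower. Upper quartile scaling called 4097 lower, total counts 1666 higher and 4520 lower, and the threshold of 0.01 called 1242 lower. With 1 library left out 1991 to 3174 were higher and 1451 to 2793 lower.

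The log2 difference of the ratio of summed TPM, 0.39, was 0.52 in CPM, 0.56 without the A1 members, 0.26 without Mcl1, 0.35 with the other relatives added, 0.48 with GENCODE lengths and 0.38 to 0.39 with 1 library left out. These follow from the values summed.

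Same-numbered libraries deviated together in part (correlations across genes of 0.31, 0.14 and -0.07), and not every library correlated best with its own number, so they were not treated as pairs. With the replicate block 6 members were higher and 3 lower, 16 and 5 related genes, and 2723 and 2327 of all genes. The ratio, with 1 library of each group per number, has the same mean difference (0.39) with the block by construction. Becn1 alone among these genes lost its call (adjusted p = 0.0613). The relatives that were not tested fell below the filter on low counts.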
